A study of Mus musculus with 9 samples.

Results

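The 10 genes described here encode subunits of the transcription factor AP-1 and other factors from the immediate-early genes: Jun, Junb, Jund, Fos, Fosb, Fosl1, Fosl2, Egr1, Ier2 and Ier3. They were chosen by symbol, and all 10 had a row in the table of 21899 genes. All 10 also had a mean of at least 10 normalized read counts over the 9 libraries, the filter that left 15827 genes for testing.

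Poly(A) RNA had been sequenced from cultured mouse brain tumor stem cells (BTSC), in 3 groups of 3 libraries. The control group held BTSC with no stated edit. The sgRNA1 KO and sgRNA2 KO groups held BTSC whose Gpd1 gene had been targeted by Cas9 with one of a pair of guide RNAs, carried on a lentiCRISPR vector that was introduced by lipofection. The labels state that edited cells went through puromycin selection, that each knockout (KO) line was expanded from a single-cell colony, and that loss of GPD1 was checked by Western blot and DNA sequencing. They do not state whether the controls received a vector, puromycin or colony picking, so these steps and the loss of Gpd1 cannot be told apart. Nothing in the labels says that the 3 control libraries came from separate lines, and the p-values measure only the spread among these libraries.

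AP-1 is a dimer of leucine-zipper proteins. Jun proteins pair with one another or with Fos proteins, whereas Fos proteins need a Jun partner, and the pair binds a short palindrome in promoters and enhancers. Most of these genes are immediate-early genes: growth factors and stress switch them on within minutes through kinases and serum response factor without new protein synthesis, and their messages decay fast. In neural progenitors and glioma they are known as readouts of growth factor signalling, and Fosl1 and Junb in particular are linked to mesenchymal programs.

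Gpd1, which encodes the cytosolic glycerol-3-phosphate dehydrogenase, stood at 25106, 26566 and 25836 normalized read counts in control replicates 1 to 3. The sgRNA1 KO libraries held 3299, 1347 and 21351, and the sgRNA2 KO libraries 10812, 10812 and 6945. Every KO library lay below every control, but sgRNA1 KO replicate 3 kept 82.6% of the control mean, and an edit that disrupts the protein need not remove its message. The log2 change in KO was -1.99 (SE 0.72, limma adjusted p = 0.0516), and an exact two-sided permutation test over the 84 ways of dividing the libraries gave p = 0.0476. Library totals ran from 39781901 to 42975283 normalized counts. By correlation over all tested genes, the KO libraries nearest the controls were replicate 3 of sgRNA1 and replicate 1 of sgRNA2 (r from 0.962 to 0.972, against 0.909 to 0.945 for the other 4 KO libraries). All 12 neural and glioma stem cell markers examined had a mean of at least 10. In KO, Sox2, Pax6 and Hes5 rose and Nes fell by the limma test described below, and the other 8 did not pass. These calls stand beside 39.3% of all tested genes called, so they are no result about the list. Of the microglial markers, Aif1, Tmem119, Csf1r and Ptprc had means under 10, and the summed list ran from 30 to 35 in control, from 34 to 43 with sgRNA1 and from 42 to 64 with sgRNA2. P2ry12, the only microglial marker tested, had 11 to 19 counts in control and rose by 1.48 on the log2 scale with sgRNA2 (27 to 52 counts, limma adjusted p = 0.0476). Summed endothelial markers ran from 592 to 647 in control and from 98 to 260 in KO, and summed pericyte markers from 2949 to 3164 and from 1674 to 2565. In control the endothelial sum was mostly Flt1 and Kdr (means of 450 and 110). Cdh5 and Cldn5 had no row, Emcn had a mean under 10, and Pecam1 had a mean of 8.33 in control and 11.2 in KO. Of the pericyte and fibroblast list, Dcn, Lum and Col1a2 had no row, and Pdgfrb had a mean under 10. Single markers went both ways. Flt1, Kdr, Rgs5 and Acta2 fell in KO, Cspg4 rose by 1.40 (limma adjusted p = 0.00072) and Tek lay above all controls in 4 of the 6 KO libraries. Summed neuron markers, nearly all Map2, ran from 42752 to 44054 in control and from 47474 to 125766 in KO. The part of these marker shifts in the results below was not tested.

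In their genomic layout the members were compact. In the GENCODE M21 annotation of GRCm38, Jun, Junb, Jund and Ier2 had a single exon, 4 of 10 members, against 378 of 13267 tested genes (2.85%). The median tested gene had 9 exons. Jun lies on chr4:95049034-95052222 (minus strand), Junb on chr8:84974484-84978718 (minus), Jund on chr8:70698949-70700616 (plus) and Ier2 on chr8:84661331-84662852 (minus). Fos has 4 exons on chr12:85473890-85477273 (plus) and Ier3 has 2 on chr17:35821684-35822923 (plus). Fosb (chr7:19302696-19310051, minus), Fosl1 (chr19:5447547-5455946, plus) and Fosl2 (chr5:32135801-32157842, plus) have 4 exons each. Exons of Jun, Junb, Jund and Fosl1 overlap Junos, Prdx2, Gm11175 and Ccdc85b on the opposite strand. Strand use in counting is not given in the sources used here, so reads of such partners cannot be told apart.

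Promoter sequence is shown for Jun, Junb, Fos and Ier3, because Jun, Junb and Ier3 fell in KO whereas Fos, from the same class of genes, did not pass the test. The letters come from RefSeq (GRCm38.p6), which held 7 of the 10 members, and run 5′ to 3′ on the gene's strand up to the RefSeq start, or for Ier3 up to the GENCODE start just upstream of it. Capitals mark matches to the motifs searched, on either strand. The Jun window is chr4:95052223-95052372 (minus strand), that of Junb chr8:84978749-84978898 (minus), that of Fos chr12:85473740-85473889 (plus) and that of Ier3 chr17:35821563-35821683 (plus).
Jun: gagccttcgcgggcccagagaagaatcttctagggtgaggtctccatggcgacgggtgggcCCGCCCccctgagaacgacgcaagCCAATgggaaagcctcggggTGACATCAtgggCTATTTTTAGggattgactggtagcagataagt
Junb: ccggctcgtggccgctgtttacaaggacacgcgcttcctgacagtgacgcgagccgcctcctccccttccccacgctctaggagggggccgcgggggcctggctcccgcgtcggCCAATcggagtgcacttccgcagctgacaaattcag
Fos: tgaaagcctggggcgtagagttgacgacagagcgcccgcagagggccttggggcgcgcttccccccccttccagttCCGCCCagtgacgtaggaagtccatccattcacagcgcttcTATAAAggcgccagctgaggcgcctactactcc
Ier3: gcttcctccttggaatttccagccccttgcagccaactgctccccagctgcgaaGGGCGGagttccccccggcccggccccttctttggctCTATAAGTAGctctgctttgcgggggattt

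The Jun window held TGACATCA, a variant of the AP-1 and CREB palindrome by which the Jun protein is known to bind its own promoter, from -45 to -38 relative to the start. Over the 250 bases before the start, this motif matched 1 of the 7 member promoters and 2.93% of 32851 promoters. A loose outline of a MEF2 site, CTA and TAG with any 4 bases between them, matched Jun and Ier3 and 3.2% of promoters. The 4 bases were TTTT in Jun and TAAG in Ier3, so only in Jun were all of them A or T. CCAAT matched Jun, Junb and Ier3 (33.8% of promoters), GGGCGG, the GC box, matched 5 of 7 (32.7%), and TATAAA matched Fos (12.4%). Neither TGANTCA (6.75%) nor TGACGTCA (1.55%) nor the CArG box (1.47%), which serum response factor binds, matched any of the 7 members searched. Fosl1, Egr1 and Ier2 had no RefSeq promoter here and were not searched. Sites beyond the 250 bases would be missed. Of these motifs none shares letters with another in the windows shown. A match is a string of letters and not a shown site. The RefSeq start of Jund lies 1210 bases upstream of the GENCODE start, so its window was not shown. That window still counts among the 7, as does that of Fosl2, whose RefSeq start lies well downstream of the GENCODE start.

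The messages also carry decay elements. AU-rich elements built on ATTTA mark short-lived messages and recruit decay factors of the Zfp36 family. The 3′ UTR of Ier3 held 5 ATTTA in 613 bases (8.16 per kilobase), that of Fos 4 (4.91), that of Junb 2 (4.12) and that of Jun 4 (3.24). The median of 13083 tested genes was 1.29 per kilobase. Fosl2 held 8 in a longer UTR (1.72), Jund, Fosl1 and Fosb 1 each (1.88, 1.57 and 0.466), Egr1 2 (1.64) and Ier2 none. The longer element TTATTTATT, which contains ATTTA, occurred in Fos and Fosl2 and in 7.66% of tested genes. It is shown in capitals with its flanks, from GENCODE transcripts on GRCm38.
Fos 3′ UTR, chr12, plus strand, UTR bases 647 to 672: ttttcaatTTATTTATTaagatggat
Fosl2 3′ UTR, chr5, plus strand, UTR bases 3684 to 3709: ttattttaTTATTTATTttaaatgtt

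Over both guides, KO libraries had less Jun, Junb, Ier3 and Fosl1 message than controls and more Jund. In bulk RNA, fewer cells with a message and less message per cell cannot be told apart. Jun fell to 0.413 of the control level, Junb to 0.265, Fosl1 to 0.568 and Ier3 to 0.116, whereas Jund rose 1.95-fold. Fos, Fosb, Fosl2, Egr1 and Ier2 did not pass the test. The comparison was made with limma on log2(value + 1), 6 KO against 3 control libraries, at an adjusted p threshold of 0.05 over all tested genes. The 5 members called, 1 higher and 4 lower, stand beside 39.3% of all tested genes called (19.1% higher, 20.2% lower). A share of 5 in 10 is near that background and is no result about the members as a set. In 3 of 10 members the groups did not overlap, beside 44.8% of tested genes. The median log2 change of the members was -0.94, and that of all tested genes was -0.01. Without sgRNA1 KO replicate 3 and sgRNA2 KO replicate 1, 4 members were called, 1 higher and 3 lower, beside 48.3% of all tested genes.

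**Figure D1:**
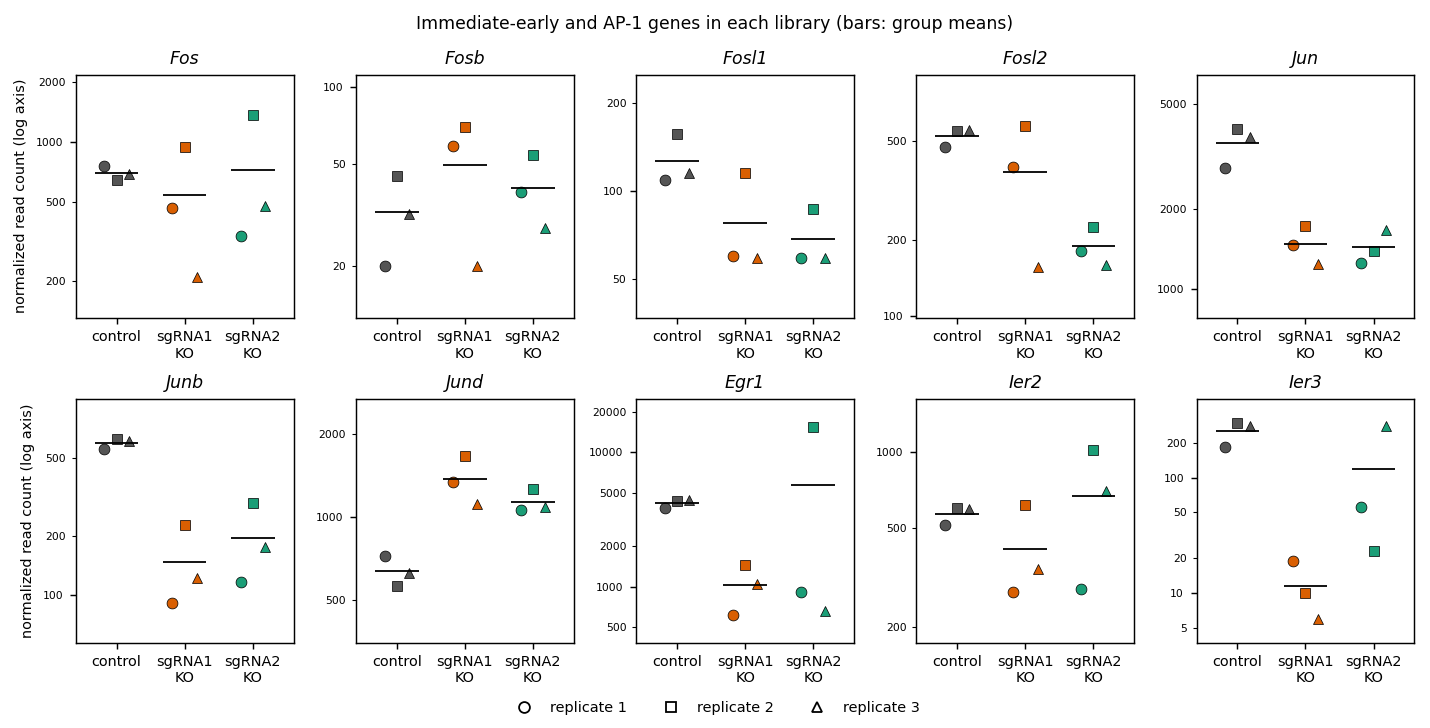
Normalized read count (log axis) of each member in each library, by group (control, sgRNA1 KO, sgRNA2 KO). Points are libraries, with a shape for each replicate number, and bars are group means. Jun and Junb lie below every control in all 6 KO libraries and Jund above, while the KO points of Egr1 and Ier3 spread from 614 to 15492 and from 6 to 279.

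Jun, the founding AP-1 subunit and an activator of cell cycle entry, had 2866, 4021 and 3758 normalized read counts in control. It had 1473, 1734 and 1249 with sgRNA1 and 1260, 1388 and 1674 with sgRNA2. The highest KO library was far below the lowest control, and the KO libraries differed little among themselves. Jun fell by 1.27 on the log2 scale (SE 0.15, limma adjusted p = 0.000775). The changes were -1.25 with sgRNA1 (adjusted p = 0.00464) and -1.30 with sgRNA2 (adjusted p = 0.00438), and the guides differed by 0.04 (95% interval -0.38 to 0.46). Without the KO libraries nearest the controls the change was -1.17.

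Junb, a Jun family member that often opposes Jun in proliferation, had 555, 623 and 612 counts in control. It had 91, 226 and 121 with sgRNA1 and 116, 294 and 176 with sgRNA2. No KO library reached a control, and replicate 2 was the highest in both KO groups. Replicates of different groups share only a number. Junb fell by 1.92 (SE 0.35, limma adjusted p = 0.00356), with -2.13 for sgRNA1 (adjusted p = 0.0082) and -1.71 for sgRNA2 (adjusted p = 0.02). Without the KO libraries nearest the controls it was -1.72. The sgRNA2 call was lost without any one of the 3 controls (adjusted p = 0.0575, 0.0837 and 0.079).

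Jund, the Jun protein that is expressed steadily in resting cells and restrains growth in many of them, moved the other way. It had 720, 562 and 627 counts in control, 1340, 1669 and 1113 with sgRNA1 and 1061, 1259 and 1084 with sgRNA2. Every KO library was above every control. Jund rose by 0.97 on the log2 scale (SE 0.16, limma adjusted p = 0.00287). The rise was 1.10 with sgRNA1 (adjusted p = 0.00588) and 0.84 with sgRNA2 (adjusted p = 0.0164), and 1.06 without the KO libraries nearest the controls. With sgRNA2 the call ended when control replicate 2 (adjusted p = 0.082), control replicate 3 (0.0712) or sgRNA2 KO replicate 2 (0.0547) was left out.

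**Figure D2:**
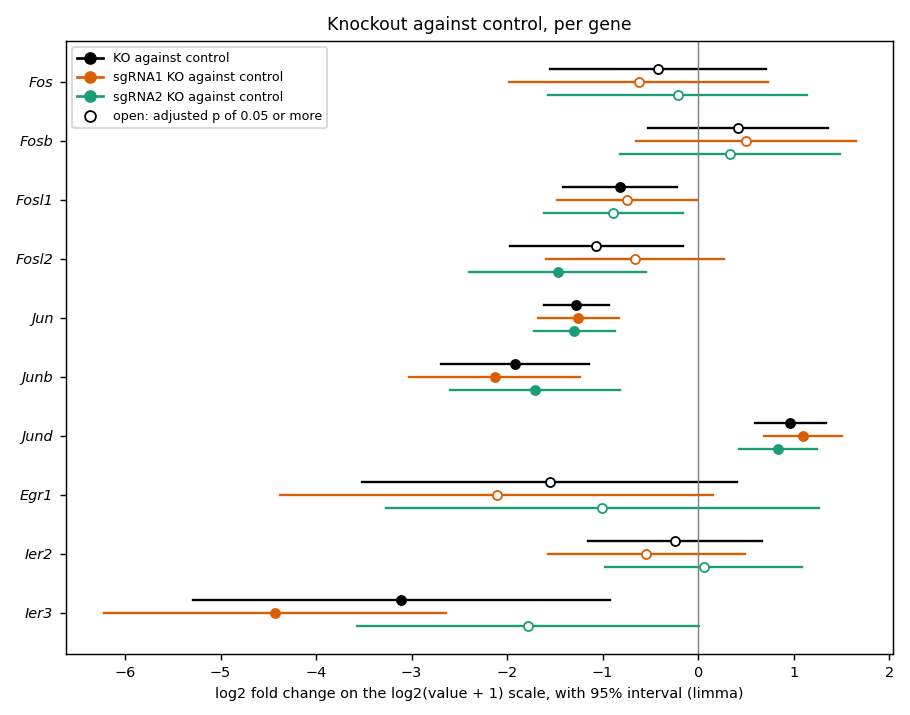
Log2 fold change of each member from limma, with its 95% interval, for KO, sgRNA1 KO and sgRNA2 KO against control. Open points have an adjusted p of 0.05 or more. The intervals of Jun and Jund are the narrowest around their changes of -1.27 and 0.97, and those of Egr1 and Ier3 the widest.

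Fos, the prototype immediate-early gene and partner of Jun proteins, had 759, 645 and 691 counts in control. It had 467, 946 and 209 with sgRNA1 and 335, 1363 and 475 with sgRNA2. The KO libraries fell on both sides of the controls, with replicate 2 of each guide above all 3 and the other 4 below. The log2 change of -0.42 had a 95% interval of -1.55 to 0.71 (limma adjusted p = 0.531). It was 0.07 without the KO libraries nearest the controls, so no direction can be given.

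Fosb, a Fos protein known from long-lasting responses in neurons, had the lowest control counts of the members. It had 20, 45 and 32 counts in control, 59, 70 and 20 with sgRNA1 and 39, 54 and 28 with sgRNA2. The groups overlapped, and the lowest KO library equalled the lowest control. Its log2 change was 0.41 (95% interval -0.52 to 1.35, limma adjusted p = 0.451).

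Fosl1, which encodes FRA-1, the Fos protein tied to invasive and mesenchymal states, had 109, 156 and 115 counts in control. It had 60, 115 and 59 with sgRNA1 and 59, 87 and 59 with sgRNA2. Only sgRNA1 KO replicate 2 came within the control range, and 4 KO libraries lay at 59 or 60. Fosl1 fell by 0.82 (SE 0.27, limma adjusted p = 0.0358). The changes with sgRNA1 (-0.75, adjusted p = 0.0965) and sgRNA2 (-0.89, adjusted p = 0.0767) did not pass. Without both KO libraries nearest the controls the change was -0.69 (adjusted p = 0.0826), and leaving out any of the 3 controls, sgRNA1 KO replicate 1 or 3, or sgRNA2 KO replicate 1 also ended the call (adjusted p from 0.0548 to 0.162).

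Fosl2, which encodes FRA-2, a slower and longer-lived Fos protein, had 471, 545 and 552 counts in control. It had 394, 574 and 157 with sgRNA1 and 181, 227 and 160 with sgRNA2. The sgRNA2 libraries all lay below the controls, together with sgRNA1 KO replicates 1 and 3, and sgRNA1 KO replicate 2 lay above them. In sgRNA2 KO, Fosl2 fell by 1.47 (SE 0.41, limma adjusted p = 0.0353). In sgRNA1 KO the change was -0.66 (adjusted p = 0.224) and in KO with both guides -1.07 (adjusted p = 0.0599). The sgRNA2 call was lost without any 1 control or any 1 sgRNA2 library (adjusted p from 0.0645 to 0.118), and the KO change passed without sgRNA1 KO replicate 1 (adjusted p = 0.047) or replicate 2 (0.0124).

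Egr1, a zinc-finger factor that is a standard readout of ERK signalling (chr18:34859823-34864984, plus strand, 2 exons), had 3880, 4359 and 4426 counts in control. It had 614, 1456 and 1041 with sgRNA1 and 910, 15492 and 658 with sgRNA2. In 5 KO libraries Egr1 lay far below every control, and sgRNA2 KO replicate 2 was far above them all. The log2 change was -1.56 (SE 0.88, limma adjusted p = 0.181). Without sgRNA2 KO replicate 2 it was -2.24 (adjusted p = 0.00187), with -2.44 for sgRNA2 (adjusted p = 0.00964). For sgRNA1 the change of -2.11 had adjusted p = 0.125 with all libraries and 0.00432 without that library, which shares the estimate of spread.

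Ier2, a small nuclear protein induced by growth factors, had 510, 598 and 591 counts in control. It had 277, 616 and 342 with sgRNA1 and 283, 1021 and 701 with sgRNA2. The KO libraries were split, with 3 below the controls and 3 above. Its log2 change was -0.24 (95% interval -1.15 to 0.67, limma adjusted p = 0.657).

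Ier3, a stress-induced regulator of cell survival and ERK signalling, had 184, 297 and 280 counts in control. It had 19, 10 and 6 with sgRNA1 and 56, 23 and 279 with sgRNA2. Ier3 was at a small part of the control level in 5 KO libraries and within the control range in sgRNA2 KO replicate 3. It fell by 3.11 on the log2 scale in KO (SE 0.98, limma adjusted p = 0.0313), and in sgRNA1 KO it fell by 4.43 (SE 0.79, adjusted p = 0.00722). In sgRNA2 KO the change was -1.78 (adjusted p = 0.129), and -2.75 without replicate 3 (adjusted p = 0.0193). The KO call was lost without any 1 control, sgRNA1 KO replicate 1 or 2, or sgRNA2 KO replicate 2 (adjusted p from 0.0538 to 0.106), and without the KO libraries nearest the controls it stood at -2.84 (adjusted p = 0.0478).

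The guides were next set apart. Both comparisons use the same 3 controls and are not independent of one another. With sgRNA1, Jund rose and Jun, Junb and Ier3 fell, 4 of 10 members, beside 36% of tested genes called (17.1% higher, 18.9% lower). The sgRNA1 and control libraries did not overlap for 5 members, Jun, Junb, Jund, Egr1 and Ier3, beside 60.5% of tested genes. With sgRNA2, Jund rose and Jun, Junb and Fosl2 fell, 4 of 10, beside 22.1% of tested genes called (11.4% higher, 10.7% lower). Those libraries did not overlap with the controls for Jun, Junb, Jund, Fosl1 and Fosl2, beside 54.6% of tested genes. Both shares without overlap, 5 of 10, are under the background.

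Between the guides, no member passed the limma test, beside 0% of tested genes (0 of 15827). Before adjustment, 1 of 10 members and 474 tested genes (2.99%) had a p under 0.05. That member was Ier3, whose sgRNA1 KO libraries all lay below the sgRNA2 KO libraries (log2 difference -2.65, 95% interval -4.44 to -0.86, adjusted p = 0.778). It was the only member whose guides did not overlap, beside 3.7% of tested genes. Without sgRNA1 KO replicate 3, Fosl2 was higher with sgRNA1 by 1.34 (limma adjusted p = 0.0481), where 182 of 15827 tested genes (1.15%) were called. Of the 9 fits that left out 1 library, this was the only 1 in which a member passed.

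Libraries of the same guide differed in how many members lay above or below the controls. In sgRNA1 KO replicates 1 and 3 and in sgRNA2 KO replicate 1, 8 of the 10 members lay below all controls. In sgRNA1 KO replicate 2, 5 lay above (Fos, Fosb, Fosl2, Jund and Ier2) and 4 below. In sgRNA2 KO replicate 2, 5 lay above (Fos, Fosb, Jund, Egr1 and Ier2) and 5 below. In sgRNA2 KO replicate 3, 2 lay above (Jund and Ier2) and 6 below. Of all tested genes, 40.8% to 45.5% lay above all controls and 44.0% to 46.3% below, depending on the KO library. The counts in replicate 2 of both guides are near that background. The median log2 ratio of the members to the control mean was 0.00 and 0.14 in replicate 2 of sgRNA1 and of sgRNA2. It was between -1.61 and -0.81 in the other 4. Jun, Junb and Jund kept the same side of the controls in all 6.

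**Figure D3:**
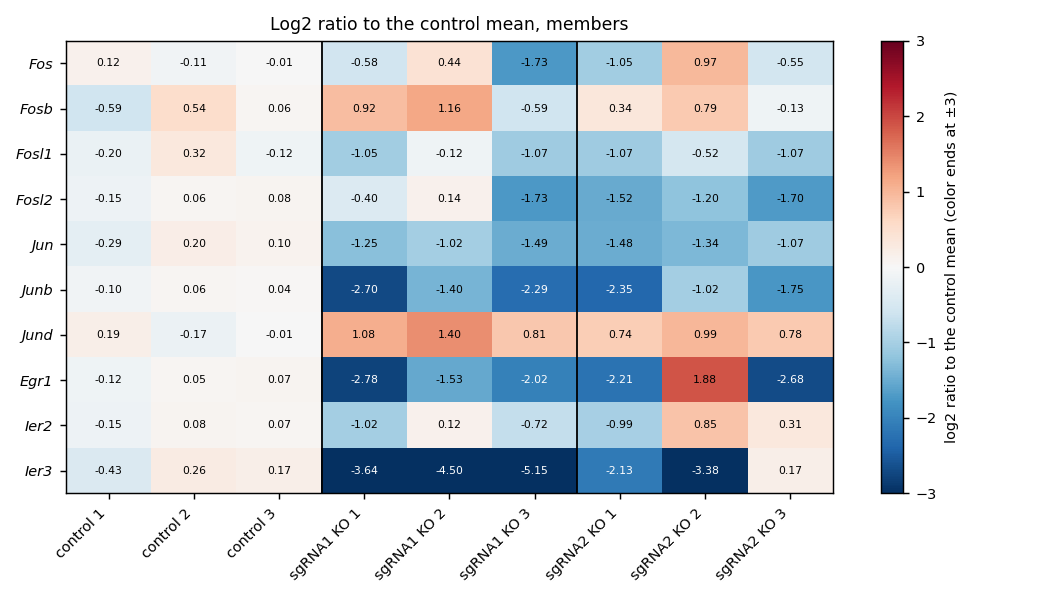
Log2 ratio of each member to the control mean, in each library, controls included (colour scale in log2 units). Jun and Junb are below the control mean and Jund above it in all 6 KO libraries. Among the KO libraries, Fos is above it in replicate 2 of both guides and Egr1 in sgRNA2 KO replicate 2.

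On the log2 scale, Jun and Jund were also the steadiest members across the 6 KO libraries. The SD was 0.20 for Jun and 0.25 for Jund, against a median of 0.36 over all tested genes. Egr1 (SD 1.74) and Ier3 (SD 1.91) varied more than 99.1% and 99.3% of tested genes, and Fos (SD 0.98) more than 93%. In the controls, whose median gene had an SD of 0.09, Fos had 0.12, Egr1 0.10 and Jun 0.26. The highest KO library exceeded the lowest 46.5-fold for Ier3, 25.2-fold for Egr1 and 1.39-fold for Jun.

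Levels of different genes can be compared only per length, and values were divided by exon length in kilobases for this. In control, Jun was the highest member (1113 ± 190 normalized counts per kilobase, SD, n = 3), followed by Egr1 (941.5 ± 66.4), Jund (381 ± 47.6) and Ier2 (372 ± 32.1). Fos (297 ± 24.4), Junb (259 ± 15.9) and Ier3 (224 ± 53.9) followed, then Fosl1 (62.3 ± 12.6) and Fosl2 (54.0 ± 4.64), and Fosb was last at 5.18 ± 2.0. Libraries of the neighbours Jun and Egr1, Jund and Ier2, Junb and Ier3, and Fosl1 and Fosl2 overlapped. In KO, Jund led at 752 ± 138 (SD, n = 6) and Jun stood at 459 ± 64.4. Egr1 had a similar mean, 749.7 ± 1327, which rests on a single library. Ier2 (355 ± 194), Fos (269 ± 186), Junb (74.2 ± 33.7), Ier3 (57.9 ± 93.8), Fosl1 (36.0 ± 11.5), Fosl2 (29.1 ± 17.4) and Fosb (7.21 ± 3.08) followed. By mean, Egr1 stands between Jund and Jun. The KO libraries of neighbours in the order of means overlapped, except those of Fosl2 and Fosb. Those of Jund (636 to 1001) and Jun (392 to 544) did not overlap.

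Per kilobase, the leading message among the 7 AP-1 subunits was Jun in all 3 controls and Jund in all 6 KO libraries. The lead of Jund rests on the exon lengths used, 3189 bases for Jun and 1668 for Jund. Before division by length, Jun had more counts than Jund in every KO library (1249 to 1734 against 1061 to 1669). RefSeq starts Jund further upstream, as given above, so its true length may differ. Jun made up 51.0% ± 5.37 of the summed per-kilobase level in control (44.9% to 55.2%) and 28.9% ± 4.65 in KO (22.1% to 34.9%). Jund made up 17.7% ± 3.50 in control (14.8% to 21.6%) and 46.9% ± 5.56 in KO (38.3% to 53.4%). Junb went from 11.9% ± 0.105 to 4.46% ± 1.32. These ranges do not overlap between control and KO. The ratio of Jun to Jund per kilobase was 2.08, 3.74 and 3.14 in control, 0.575, 0.543 and 0.587 with sgRNA1 and 0.621, 0.577 and 0.808 with sgRNA2. The Jun family as a whole held 80.7% ± 1.80 of the sum in control and 80.3% ± 7.89 in KO. The share of Fos was 13.8% ± 2.13 in control and ran from 7.12% to 29.4% in KO. These shares describe message and restate the changes above, and no test was made on them.

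**Figure D4:**
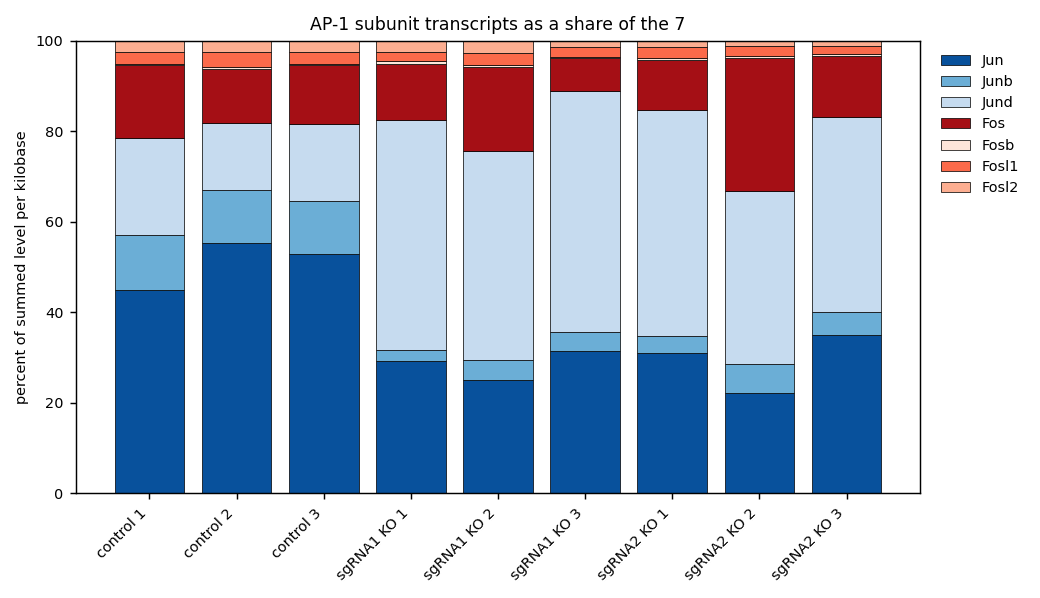
Share of each of the 7 AP-1 subunits in their summed level per kilobase of exon, in percent, for each library (stacked bars from 0 to 100%). Jun holds 44.9% to 55.2% in the controls and Jund 38.3% to 53.4% in the KO libraries.

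Other immediate-early genes moved in both directions. Of 29 tested, 3 rose and 9 fell in KO, with a median log2 change of -0.51 (without the KO libraries nearest the controls, 3 rose and 6 fell). The 12 called of 29 stand beside 39.3% of all tested genes, so this is no result about the list. Btg2, an antiproliferative gene, rose by 2.22 on the log2 scale (limma adjusted p = 0.000537). Dusp1, the phosphatase that switches off MAP kinases, rose by 1.36 (adjusted p = 0.00674), and Zfp36, which encodes the AU-rich element binding protein tristetraprolin, by 0.70 (adjusted p = 0.0413). Arc, a synaptic early gene, fell by 3.64 (adjusted p = 0.00309). Ier5, Ier5l and Myc fell by 0.98, 1.54 and 0.85 (adjusted p = 0.0112, 0.0227 and 0.0285).

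A few early genes were picked out after their values were seen, because they followed single libraries. Egr2, a relative of Egr1, had 418 counts in sgRNA1 KO replicate 2 and 487 in sgRNA2 KO replicate 2, against 67 to 92 in control and 13 to 110 in the other KO libraries. Egr3 had 45 and 61 in the same libraries, against 10 to 13 in control and 0 to 4 in the rest. Fos was above the controls in these libraries only. Ier2 was above them here and also in sgRNA2 KO replicate 3 (701 counts), where Egr2 had 45 and Egr3 had 1. In sgRNA2 KO replicate 3, where Ier3 stood at 279, the stress genes Atf3 (486 counts) and Ddit3 (5501) and the AP-1 partner Jdp2 (2504) were highest. In the other 8 libraries these genes did not pass 42, 502 and 895. Whether these genes have a part in the member values was not tested.

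**Figure D5:**
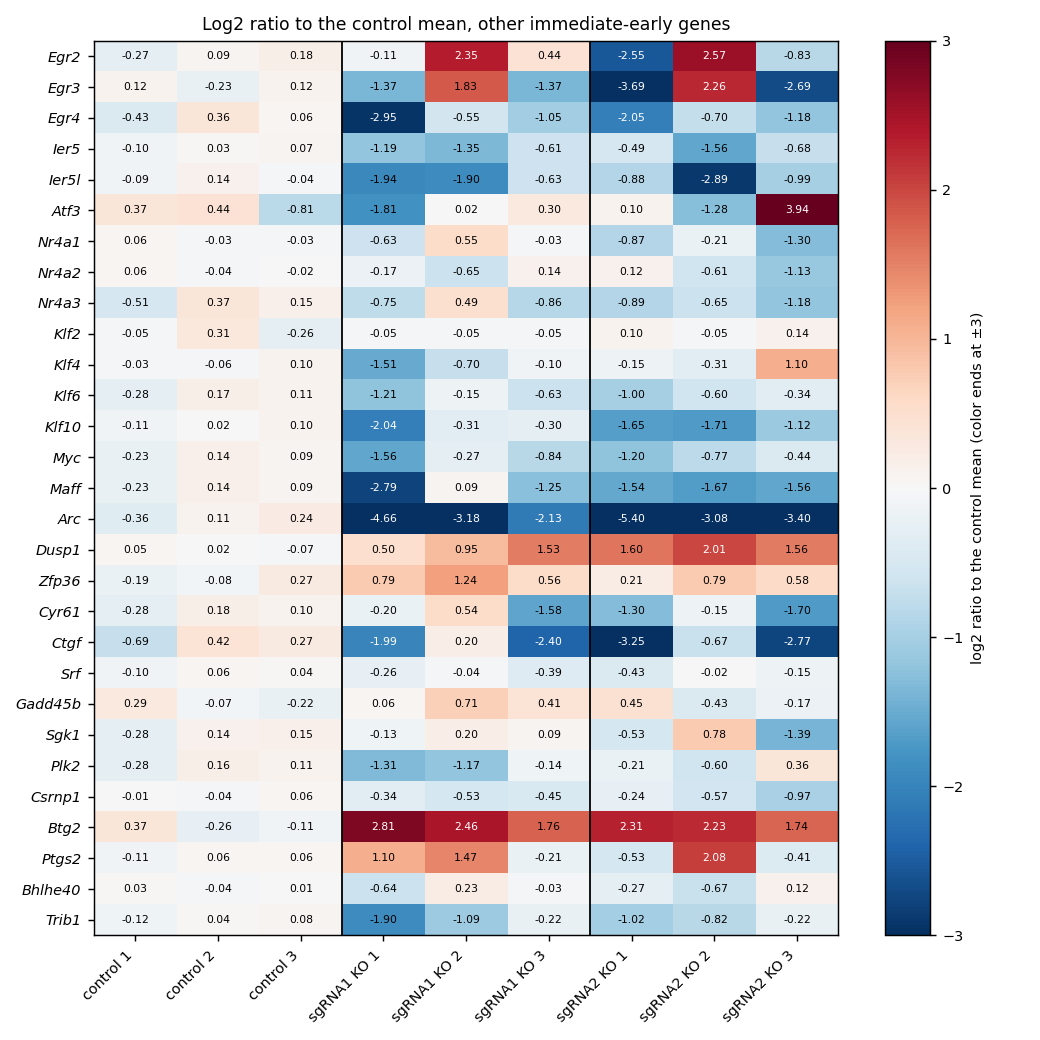
Log2 ratio to the control mean of 29 other immediate-early genes in each library, controls included (colour scale in log2 units). Dusp1 and Btg2 are above the control mean in all 6 KO libraries and Arc below, while Egr2 and Egr3 are highest in replicate 2 of both guides.

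Partners that can replace Fos in an AP-1 dimer, or Jun or Fos in a related one, also moved in both directions. Among the 11 tested, Maf rose (log2 change 1.40, limma adjusted p = 0.00185), and Batf3 (-1.53, adjusted p = 0.007) and Maff (-1.45, adjusted p = 0.039) fell. Of 8 genes for serum response factor, its partners and the Egr1 corepressors, Elk1 rose by 0.38 and Elk3, Nab1 and Nab2 fell by 0.76, 0.97 and 1.40 (limma adjusted p from 0.00371 to 0.0494). Nab1 and Nab2 bind Egr proteins and limit their activity. Without the 2 KO libraries nearest the controls, 1 of these 8 rose and 2 fell, beside 48.3% of all tested genes called (39.3% with all libraries).

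Of 19 kinases upstream of AP-1, 2 rose and 5 fell, beside 39.3% of all tested genes called. The counts were equal without the KO libraries nearest the controls, where 48.3% of all genes were called. Mapk3, which encodes ERK1, rose by 0.76 (limma adjusted p = 0.000712) and Map2k5 by 0.56 (adjusted p = 0.0149). Among those that fell, Rps6ka3 fell by 0.46, Mapk14, which encodes p38 alpha, by 0.48 and Map2k3 by 0.86 (adjusted p = 0.00371, 0.0163 and 0.0225). The Jun kinase genes did not pass, with log2 changes of -0.36 for Mapk8, -0.19 for Mapk9 and 0.02 for Mapk10. The list's median change was -0.02, beside -0.01 for all tested genes.

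Of 8 factors that govern decay of early messages, 2 rose and 4 fell, beside 39.3% of all tested genes called. The counts were equal without the KO libraries nearest the controls (48.3% of all genes called). Zfp36l1, which speeds decay of AU-rich messages, rose by 1.24 (limma adjusted p = 0.00468), as Zfp36 did. Elavl1, which encodes the stabilizer HuR, fell by 0.63 (adjusted p = 0.00112). Hnrnpd, Khsrp and Cnot1 fell by 1.11, 0.47 and 0.39 (adjusted p = 0.00628, 0.0257 and 0.0368), and these 3 also take part in decay. The members differ in these elements as given above, Ier3 being the densest and Ier2 having none. Whether message decay has a part in the member changes was not tested.

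Genes that textbooks list as AP-1 targets were lower in KO where they passed. Of 20 listed, 12 were tested, of which 8 fell and none rose, with a median log2 change of -1.78. Of all tested genes, 20.2% fell. The counts were equal without the KO libraries nearest the controls, where 3962 of 15827 genes fell. This list was drawn up with earlier results of these data known, so its direction is not independent evidence. Fn1, which encodes fibronectin, fell by 2.66 (limma adjusted p = 0.000167). Plaur, the urokinase receptor, fell by 4.65 from 34 to 53 counts in control to 3 or fewer in KO (adjusted p = 0.000419). Cd44 fell by 1.51 and Lgals1, which encodes galectin-1, by 2.30 (adjusted p = 0.00118 and 0.00219). All 8 lay below every control in all 6 KO libraries. Summed endothelial markers, in control mostly Flt1 and Kdr, and summed pericyte markers were lower in the same libraries, although Cspg4 rose, as given above. The part of these markers was not tested.

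The genes most alike to each member over the 9 libraries were found by Pearson's r of log2 values. The libraries share the control and KO groups, so a high r can come from that difference alone. Jun was most like Adamts8 (r = 0.99), Podxl (0.988) and the growth-arrest transcript host Gas5 (0.987). Jund was most like Tmem136 (0.993), Gm44645 (0.991) and the antiproliferative Btg1 (0.99). Ier3 followed Wdr4 (0.967), Mrc2 (0.961) and Trim25 (0.96), all of which were higher in sgRNA2 KO replicate 3 than in the other KO libraries. Egr1 had weaker neighbours, Adcy7 (0.921), Pcdhga9 (0.916) and Alg9 (0.901). For the rest, the nearest was Disp1 for Fos (0.964), Ssfa2 for Fosl1 (0.954), Gprin1 for Fosl2 (0.986), Frmd4a for Junb (0.957) and Hs3st1 for Ier2 (0.848).

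Between members, Jun and Jund ran opposite over the 9 libraries (r = -0.848) and in the same direction within the 6 KO libraries (r = 0.604). Within KO, Fosl2 followed Jund (r = 0.959) and Ier2 followed Junb (r = 0.955), although Fosl2 and Jund differed in direction over all 9 (r = -0.346). These are 3 of 45 pairs, picked after all were seen, over no more than 6 KO libraries within KO, and are given without a test.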

How the data were processed

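Poly(A) RNA of 9 libraries (control, sgRNA1 KO and sgRNA2 KO, 3 each) was read from the deposited table, which holds 1 score per gene and library. The authors made these scores from read counts divided by a size factor and rounded, as inferred from gaps in the low values: in control replicate 3 no gene had a value of 6, 539 had 5 and 414 had 7. The tools named in the submitters' processing notes are STAR 2.4.1d for alignment, featureCounts and DESeq2, on mm10. The annotation release and strand setting are not given in the sources used here. No count test was run, because the values are scaled.

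The table was used as deposited, as log2(value + 1), which understates changes of low genes. Genes with a mean of at least 10 (15827 of 21899) were tested two-sided with limma 3.58.1 (R 4.3.3), letting the variance follow mean level, and p-values were adjusted by Benjamini and Hochberg's method. KO against control had 2 groups, and the guide comparisons came from 1 fit with 3. The fits were tested on simulated data. Gene models came from GENCODE M21 (21817 genes matched) and promoters from RefSeq. Exon length for levels per kilobase was the union of exons.

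The members and the gene lists were chosen with earlier results of these data known. Named were Gpd1, the members, up to 4 rises and 4 falls per list by smallest adjusted p, and the 3 genes most alike to each member with a mean of at least 50. Some list members named by this rule are not reported here. Others are said to be picked out after their values were seen or stand as list members. Alternatives were other pseudocounts, filters, scalings, a block for replicate number, variance weights by group, leaving out 1 library at a time and fitting a guide with only its own comparison's 6 libraries. The fit without both KO libraries nearest the controls was chosen after seeing the data. Figures used Python 3.11.15 and matplotlib 3.10.9.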

Additional observations from a re-analysis of the deposited data

Results flagged for a closer look

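Egr1 stood apart in 1 library. Among the 6 KO libraries, sgRNA2 KO replicate 2 had 15492 normalized read counts and the next highest, sgRNA1 KO replicate 2, had 1456. On the log2 scale the gap to the nearest library was 0.733 of the whole range, above Dixon's 95% critical value for 6 samples. Chance alone marks about 1 in 20 groups, and 11 genes (the members and Gpd1) were examined. In the same library Egr2 had 487 counts, Egr3 had 61 and Fos had 1363, while Jun (1388) and Jund (1259) lay among the other KO libraries.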

How the results depend on the processing

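In KO against control, Jun, Junb and Jund kept direction and call under every alternative run. The number of members called, 5, ran from 4 to 7 over the other settings (29.7% to 56% of all genes called, against 39.3%). With 1 library left out it ran from 3 to 5 (17.5% to 48% of all genes), and was 3 when any 1 control was left out. With sgRNA1 it was 4, from 4 to 5 with 1 library left out (8.01% to 49.9% of all genes, against 36%). With sgRNA2 it was 4, and from 1 to 5 (2 without control replicate 1, 1 without control replicate 2 or 3, where 8.34%, 4.06% and 4.35% of all genes were called, against 22.1%). Between guides it was 0, and from 0 to 1 (0% to 1.15% of all genes, against 0%). The change of Gpd1 (-1.99) passed with variance weights (-1.997, limma adjusted p = 0.00375) and without both KO libraries nearest the controls (-2.60, adjusted p = 0.0116), and ran from -2.33 to -1.53 with 1 library left out. The cause of these shifts was not tested. Over all genes, 6227 were called in KO, 8868 with variance weights, and 3904, 2777 and 3006 without control replicates 1, 2 and 3. Signs reversed only where the member did not pass. In KO, Fos turned to 0.070 and Ier2 to 0.066 without both KO libraries nearest the controls. With 1 library left out, Fos ran from -0.80 to 0.21 and Ier2 from -0.34 to 0.58 for sgRNA2. Between guides, Fos ran from -0.94 to 0.18, Fosb from -0.17 to 0.71, Fosl1 from -0.17 to 0.325, Jun from -0.077 to 0.16 and Egr1 from -1.94 to 0.34. Same-numbered libraries did not deviate together (r from -0.345 to 0.332), so the numbers do not pair them. With the replicate block 5, 5, 5 and 0 members were called in the 4 comparisons (36.6%, 33.1%, 16.6% and 0% of all genes), and Gpd1 stood at -1.99 (adjusted p = 0.0613).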
